A study of Mus musculus with 8 samples.

Results

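Oxidative phosphorylation is carried out by 5 protein complexes of the inner mitochondrial membrane whose subunits come from 2 genomes. The genes examined were the protein coding rows on the mitochondrial chromosome of the count table, together with protein coding rows whose symbols begin with the usual prefixes of complex subunits (Nduf with a, b, c, s or v; Sdha to Sdhd; Uqcr; Cox4 to Cox8; Atp5). The rule found 103 of the 22691 genes in the table, 12 mitochondrially encoded and 91 nuclear encoded. It also takes in the assembly factors Ndufaf1 to Ndufaf7 and, by the prefix Atp5, Atp5s and Atp5sl, which RefSeq names Dmac2l and Dmac2 (DMAC2 is known as an assembly factor of complex I). It misses Cyc1, the cytochrome c1 subunit of complex III. Members were placed in complexes by symbol alone, Ndufa4 in complex I and Cox7a2l in complex IV among them, and these placements were not checked. mt-Nd4l was not analysed here.

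RNA-seq was done on small cell lung cancer (SCLC) cells derived from primary mouse lung tumors. All libraries carry the same labels, genotype invCAG-Mycl-Luc with Rb1-/- and Trp53 -/-, strain background FVB/n and 129/Ola. The 4 Nfib libraries came from cells in which the mouse gene Nfib, which codes for a DNA-binding protein of the nuclear factor I family, was overexpressed, and the 4 empty vector libraries from cells given the vector alone. Replicate 1 of each arm was line Lmyc1 (labelled old), replicate 2 line Lmyc3 (old), replicate 3 line Lmyc3 (new) and replicate 4 line Lmyc5 (new), so the 4 pairs stand for 3 lines. The labels do not say what old and new mean, whether a line is 1 clone, or how long Nfib was expressed. The Nfib arm is called Tumor in the titles, so arms were taken from the source names instead. Separate transductions are not stated for any library, and p-values therefore cover only the spread among these 8 libraries.

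Electrons from NADH enter at complex I and those from succinate at complex II, pass through complex III to complex IV, where oxygen is reduced, and the proton gradient built on the way drives ATP synthase, complex V. The mitochondrial chromosome encodes a few core subunits of complexes I, III, IV and V, none of complex II, and its own rRNAs and tRNAs. It is transcribed from each strand into long precursors that are cut into single RNAs, while the remaining subunits are transcribed one by one in the nucleus, translated in the cytosol and imported.

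Library totals ranged from 21815264 to 29934021 counts, with the Nfib library the deeper one in pairs 2 and 4 and the empty vector library in pairs 1 and 3. Levels are CPM, the counts of a gene scaled to a common library size, with TMM-scaled library sizes. Nfib was at 1280, 4675, 2929 and 3584 CPM in Nfib replicates 1 to 4, against 71.9, 399.6, 163 and 486 CPM in the empty vector replicates, with no overlap. The neuroendocrine markers Insm1, Chga, Syp, Uchl1 and Nkx2-1 were present in every library. Chga was at 791 to 929.8 CPM in Nfib libraries and 425 to 1692 CPM in empty vector libraries, and Uchl1 at 213 to 375 CPM with Nfib and 242 to 408 CPM with empty vector. Leukocyte marker Ptprc, fibroblast markers Col1a1, Col1a2, Col3a1 and Dcn and endothelial marker Cdh5 were each at or below 0.22 CPM in every library. The summed leukocyte list, nearly all of it Coro1a, was at 40.9, 19.7, 45.9 and 20.8 CPM in Nfib replicates 1 to 4, against 45.6, 29.4, 58.0 and 32.5 CPM with empty vector, and Coro1a passed the paired test described next as lower (DESeq2 adjusted p = 0.0302), but not with total counts, with the Lmyc3 libraries summed per arm, or without pair 2, 3 or 4. Endothelial Vwf was at 38.7 to 568 CPM with Nfib and 49.9 to 649 CPM with empty vector, and fibroblast Pdgfra at 0.26 to 12.1 CPM with Nfib and 0.15 to 10.3 CPM with empty vector, and neither passed. The summed endothelial list, Vwf included, was at 373.5, 44.6, 575 and 57.9 CPM in Nfib replicates 1 to 4. With empty vector it was at 331, 50.4, 649 and 71.7 CPM. The other genes of the leukocyte and endothelial lists are not given one by one, so the low markers above do not stand for whole lists. The 6 lung epithelium markers summed to 7.48, 11.9, 12.8 and 14.9 CPM with Nfib, against 3.79, 13.4, 5.71 and 5.86 CPM with empty vector, and of these Aqp5 passed as higher, though not without pair 2. Of these 5 neuroendocrine markers Nkx2-1 passed, as lower, though not without pair 3 or pair 4. The part of these markers in the results was not tested. In bulk RNA, fewer cells of a kind and less RNA per cell cannot be told apart.

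edgeR's quasi-likelihood test of Nfib against empty vector called none of the 13380 genes tested at a Benjamini-Hochberg adjusted p under 0.05 (0% called), with 83 genes (0.620%) at an unadjusted p under 0.05. With the replicate number as a block it again called none, Nfib included (adjusted p = 0.0657), with 969 genes higher (7.24%) and 1043 lower (7.80%) at an unadjusted p under 0.05. Genes are therefore described with DESeq2's test with the replicate block, an alternative to the planned test that was taken up for the calls once edgeR had made none. It called 249 genes higher (1.86%) and 294 lower (2.20%), more than any other tool run on the 8 libraries: limma voom with the block called 3 genes, all higher, and the bias-adjusted form of edgeR with the block 30 higher and 14 lower, with no member among the calls of either. In both directions together that is 4.06% of the genes tested, and without the block DESeq2 called 3 genes, all higher (0.0224%) and none of them a member. The words rose and fell are kept for genes past an adjusted p of 0.05 (Benjamini-Hochberg over all genes) in the paired DESeq2 fit. None of the calls of members below was made by edgeR in any form or by limma.

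The 12 mitochondrial genes were not covered alike, and their sequences are shown first because they bear on which of them can be read. 8 were above 90 CPM in every library: mt-Nd1, mt-Nd2, mt-Nd4, mt-Nd5 and mt-Nd6 (complex I), mt-Cytb (complex III), mt-Co1 (complex IV) and mt-Atp8 (complex V). The other 4, mt-Co2, mt-Co3, mt-Atp6 and mt-Nd3, did not exceed 2.17 CPM in any library, although they encode subunits of the same complexes. In the GENCODE M21 transcripts of GRCm38, every 50-base window of mt-Co2 occurs identically in Gm28661, an unprocessed pseudogene on chromosome 1. The first 60 bases of mt-Co2 (chrM:7013-7072, plus strand) and of that copy (chr1:24615506-24615565, minus strand) are the same, and those of mt-Cytb from its second base (chrM:14146-14205, plus strand) differ at the 3 positions in capitals from its closest nuclear copy, Gm11410 (chr4:80003990-80004049, plus strand).
mt-Co2: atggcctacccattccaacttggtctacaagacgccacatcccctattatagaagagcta
Gm28661: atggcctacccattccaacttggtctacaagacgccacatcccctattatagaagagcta
mt-Cytb: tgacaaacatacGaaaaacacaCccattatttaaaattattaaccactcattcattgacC
Gm11410: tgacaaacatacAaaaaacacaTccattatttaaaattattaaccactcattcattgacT

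For mt-Co3, mt-Atp6 and mt-Nd3 the shares of 50-base windows with an identical nuclear copy were 99.9%, 99.5% and 98.0%, with the copies Gm28437, Gm10925 and Gm28438 also on chromosome 1. For mt-Nd4 the share was 62.2%, all from a copy of its first 876 bases, and for mt-Co1 it was 51.1%. mt-Nd2 had 8.19% and mt-Nd5 7.61%, while mt-Nd1, mt-Atp8, mt-Nd6 and mt-Cytb had 0. The 4 genes with 98.0% or more of their windows copied identically were thus the 4 with almost no counts. mt-Nd4, with an identical copy of part of its length, stayed among the well covered genes. So did mt-Co1, whose closest copy spans its whole length at 97.6% identity. How reads with several matching places were treated is not given in the sources used here, and its part in the low counts was not tested. Reads from a gene and its copy cannot be told apart over identical stretches, so the levels of these 4 genes, and to a lesser degree of mt-Nd4 and mt-Co1, are uncertain.

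**Figure D1:**
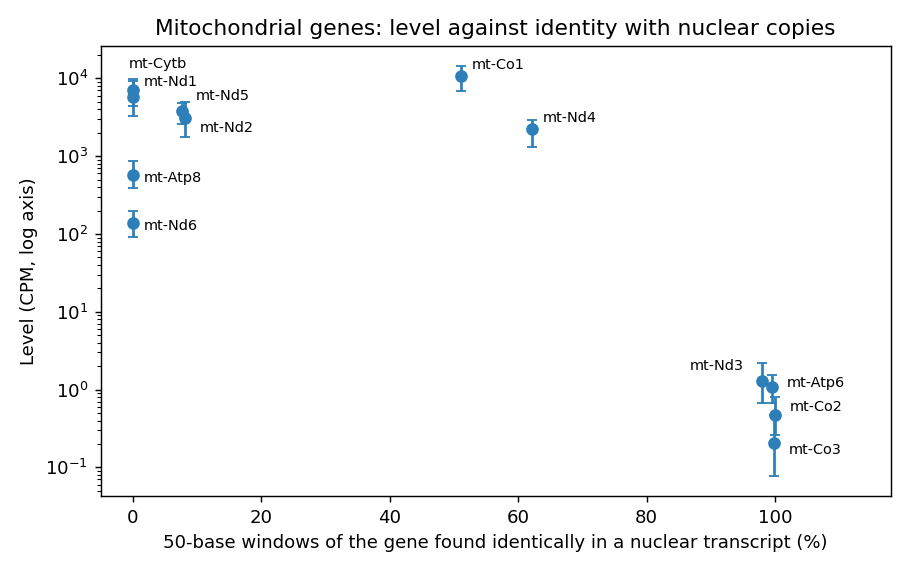
Level of the 12 mitochondrially encoded genes (CPM, log axis; point, mean of 8 libraries; bar, lowest to highest library) against the percentage of their 50-base windows that occur identically in an annotated nuclear transcript. The 4 genes at 98.0% or more do not exceed 2.17 CPM, and the 8 genes at 62.2% or less are above 90 CPM in every library.

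Of the 11 mitochondrially encoded genes tested, 4 fell with Nfib and none rose, beside the 2.20% of all genes that fell. The 11 genes share 1 chromosome and its transcripts, so their calls are not separate observations and the 2 shares are not alike. With pair 1, 2, 3 or 4 left out the number that fell was 1, 1, 2 and 0, and with the Lmyc3 libraries summed per arm it was 7. The 4 genes were mt-Nd4 and mt-Nd5 of complex I, mt-Cytb of complex III and mt-Co1 of complex IV, and each was lower in the Nfib library of all 4 pairs. Their lowest value in any library was 1308 CPM (mt-Nd4), and small differences are called more readily at such counts. edgeR with the block called none of the 11, with 6 of them lower at an unadjusted p under 0.05 (7.80% of all genes). Of the 8 well covered genes, 7 were lower in all 4 pairs, the exception being mt-Nd6, while 12.9% of all genes tested were lower in all 4 pairs. The fitted differences of these 7 genes lay between 13.5% and 22.0% lower with Nfib. The groups separated in none of the tested genes on this chromosome (0.516% of all genes had groups that did not overlap).

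In complex I, mt-Nd4, a proton-pumping core subunit (MT, 10167 to 11544), was at 2134, 2401, 2275 and 1308 CPM in Nfib replicates 1 to 4, against 2694, 2883, 2546 and 1667 CPM with empty vector. Each Nfib library lay below its own empty vector library, but 3 of the 4 Nfib libraries were above the lowest empty vector library. mt-Nd4 fell by 0.29 on the log2 scale (SE 0.06, DESeq2 adjusted p = 0.000172). It passed without pair 1, 2 or 3 and not without pair 4 (DESeq2 adjusted p = 0.0977), and edgeR with the block gave an adjusted p of 0.180.

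mt-Nd5, the largest pumping subunit of complex I by gene length (MT, 11742 to 13565), was at 3738, 3641, 4036 and 2584 CPM with Nfib, against 4658, 4874, 4207 and 3198 CPM with empty vector. The gap was small in pair 3, at -0.06 on the log2 scale, and between -0.31 and -0.42 in the other pairs. It fell by 0.28 (SE 0.08, DESeq2 adjusted p = 0.0154), and passed again with pair 3 left out but not with any other pair left out.

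mt-Nd1 and mt-Nd2, core subunits of the membrane arm that lie next to the rRNA genes (MT, 2751 to 3707 and 3914 to 4951), had the widest spread of within-pair differences among the well covered genes. mt-Nd1 was at 6620, 4849, 5370 and 3252 CPM with Nfib, against 7060, 9219, 5437 and 4110 CPM with empty vector. Its log2 difference was -0.93 in pair 2 but -0.02 in pair 3, and it did not pass (-0.35, SE 0.16, DESeq2 adjusted p = 0.241). mt-Nd2 was at 3307, 2931, 2792 and 1774 CPM with Nfib, against 3815, 4927, 3041 and 2216 CPM with empty vector, and narrowly missed the threshold (-0.36, SE 0.12, DESeq2 adjusted p = 0.0563).

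mt-Nd6, the only protein coded on the minus strand (MT, 13552 to 14070), was at 161, 139, 154 and 96.0 CPM with Nfib, against 196, 161, 124 and 90.9 CPM with empty vector. It was lower with Nfib in pairs 1 and 2 and higher in pairs 3 and 4, and the fitted difference was -0.04 (SE 0.13, DESeq2 adjusted p = 0.968). In this fit its sign turned when pair 1 or pair 2 was left out. mt-Nd6 shares its end with mt-Nd5 on the opposite strand, and without a stated strand setting reads in the overlap cannot be assigned. Whether mt-Nd6 differed from the plus-strand genes in its response was not tested.

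mt-Cytb encodes cytochrome b, the only mitochondrially encoded subunit of complex III (MT, 14145 to 15288). It was at 6702, 8277, 6971 and 4457 CPM with Nfib, against 7626, 9978, 7623 and 5191 CPM with empty vector. The 4 within-pair log2 differences were even, between -0.13 and -0.27. mt-Cytb fell by 0.21 (SE 0.05, DESeq2 adjusted p = 0.00205), and did not pass with any 1 pair left out (DESeq2 adjusted p between 0.0536 and 0.281).

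mt-Co1, the catalytic subunit of complex IV (MT, 5328 to 6872), had the highest count of any gene in all 8 libraries. It was at 9322, 11303, 12207 and 6981 CPM with Nfib, against 10932, 14279, 13343 and 7959 CPM with empty vector. mt-Co1 fell by 0.23 (SE 0.06, DESeq2 adjusted p = 0.00599), with within-pair log2 differences between -0.13 and -0.34, and it too did not pass with any 1 pair left out (DESeq2 adjusted p between 0.0534 and 0.190). mt-Co2 and mt-Co3, the other core subunits of complex IV, were at 0.39, 0.51, 0.26 and 0.35 CPM and at 0.09, 0.18, 0.09 and 0.08 CPM with Nfib, against 0.37, 0.80, 0.56 and 0.54 CPM and 0.10, 0.47, 0.30 and 0.32 CPM with empty vector. mt-Co3 held 2 to 4 counts per Nfib library and 3 to 10 per empty vector library and was not tested.

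mt-Atp8, a small membrane subunit of ATP synthase (MT, 7766 to 7969), was at 527, 628, 552 and 385 CPM with Nfib, against 613, 869, 606 and 421 CPM with empty vector, lower in every pair. It did not pass (-0.25, SE 0.08, DESeq2 adjusted p = 0.0705). Its last bases overlap the start of mt-Atp6, which encodes the subunit at the proton channel and was at 0.83, 1.24, 1.08 and 0.66 CPM with Nfib, against 1.39, 1.56, 1.11 and 0.68 CPM with empty vector. The near absence of counts from mt-Atp6 beside at least 385 CPM for its neighbour, known to be carried on the same transcript, was seen in all 8 libraries. mt-Nd3, of complex I, was at 1.78, 0.96, 1.29 and 0.66 CPM with Nfib, against 1.49, 2.17, 1.15 and 0.72 CPM with empty vector.

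**Figure D2:**
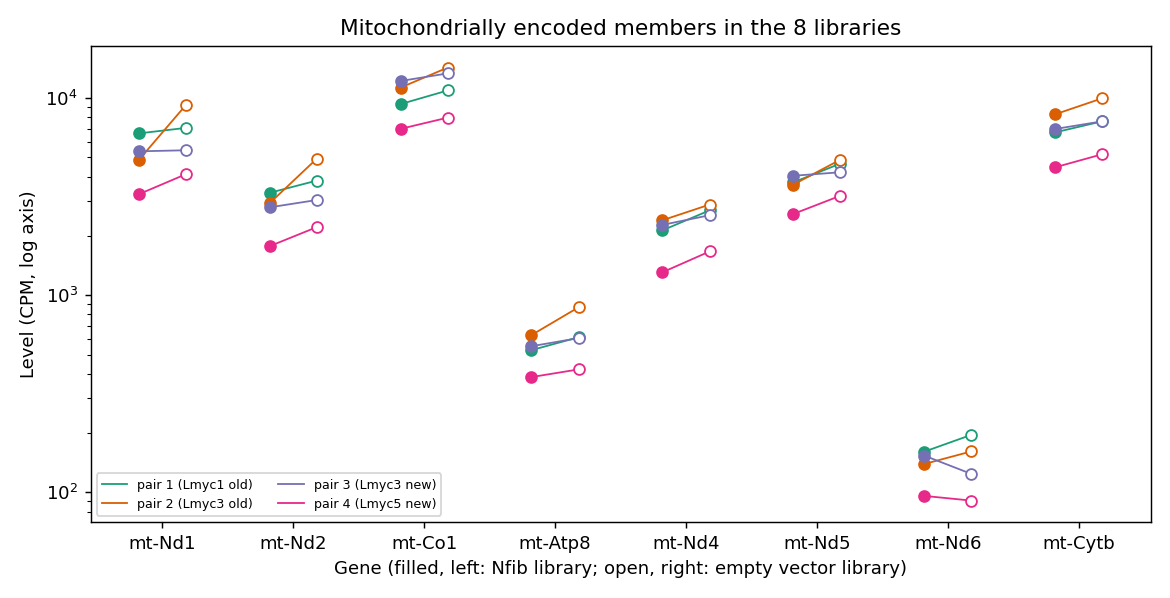
Levels (CPM, log axis) of the 8 well covered mitochondrially encoded genes in the 8 libraries, in chromosome order, with the Nfib library (filled) left of the empty vector library (open) of the same pair. All lines run upward to the right except those of mt-Nd6 in pairs 3 and 4, and pair 4 lies lowest for every gene.

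The rRNAs of the same chromosome are no members but share its transcript. mt-Rnr1 had within-pair log2 differences of -0.16, -0.72, -0.07 and -0.16 in pairs 1 to 4, and did not pass (-0.28, SE 0.13, DESeq2 adjusted p = 0.262). mt-Rnr2 had 0.27, -0.93, 0.11 and -0.25 and did not pass (-0.20, SE 0.19, DESeq2 adjusted p = 0.747). In pair 2 the differences were therefore widest at the rRNA, mt-Nd1 and mt-Nd2 end of the plus strand and narrower from mt-Co1 onward, a shape that the other 3 pairs did not have.

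**Figure D3:**
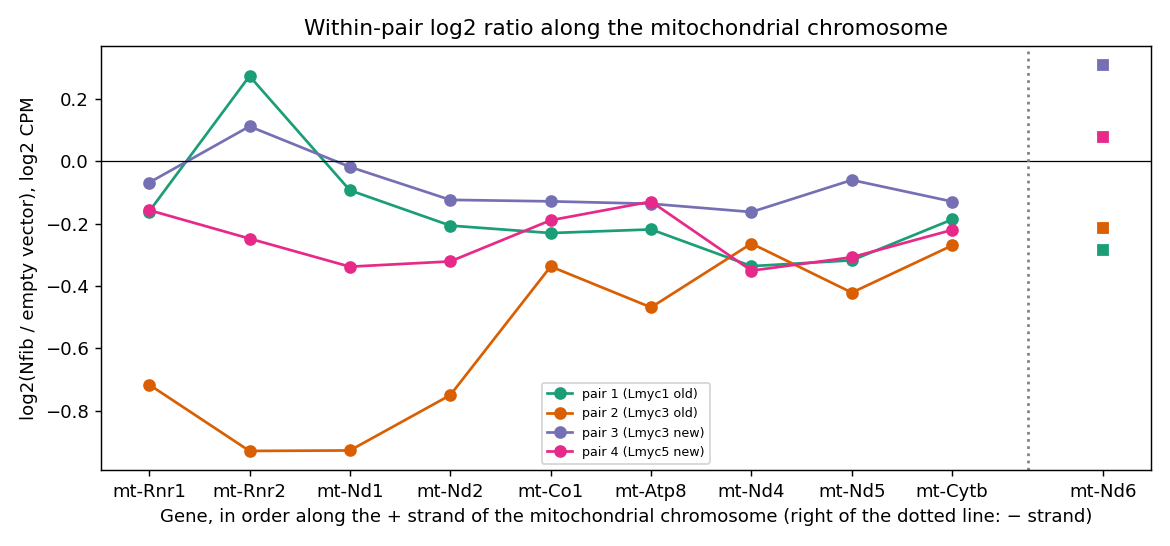
Log2 ratio of Nfib over empty vector within each pair for the rRNAs and the 8 well covered protein coding genes, in their order along the plus strand, with mt-Nd6 of the minus strand to the right of the dotted line. Pair 2 lies between -0.72 and -0.93 from mt-Rnr1 to mt-Nd2 and between -0.26 and -0.47 from mt-Co1 to mt-Cytb, with mt-Nd6 at -0.21, whereas the other pairs lie between -0.06 and -0.35 from mt-Nd2 to mt-Cytb.

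Counted together, mitochondrially encoded members took 3.29%, 3.35%, 3.53% and 2.13% of all counts in Nfib replicates 1 to 4, against 3.71%, 4.58%, 3.74% and 2.47% with empty vector. The means were 3.07% ± 0.639 with Nfib and 3.63% ± 0.870 with empty vector (SD, n = 4 each), so the arms overlap although every pair went the same way. Nuclear encoded members took 1.23%, 1.36%, 0.991% and 0.940% with Nfib, against 1.26%, 1.53%, 0.983% and 0.926% with empty vector, lower in 2 pairs and higher in 2. With TMM-scaled CPM their sum was lower in all 4 pairs, by log2 ratios of -0.07, -0.18, -0.01 and -0.02, so the direction in pairs 3 and 4 turns with the scaling. The mitochondrial to nuclear count ratio was 2.68, 2.46, 3.56 and 2.26 with Nfib and 2.95, 2.99, 3.81 and 2.67 with empty vector, lower with Nfib in each pair.

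Of the 87 nuclear encoded members tested, 1 fell with Nfib and none rose, against 2.20% and 1.86% of all genes. That member was Ndufv3, an accessory subunit of the NADH-binding module of complex I (ENSMUSG00000024038, chromosome 17, 31520115 to 31531326). It was at 71.3, 52.0, 56.4 and 56.1 CPM in Nfib replicates 1 to 4, against 86.2, 78.8, 73.6 and 68.3 CPM with empty vector. Only Nfib replicate 1 lay within the range of the empty vector libraries. Ndufv3 fell by 0.39 on the log2 scale (SE 0.10, DESeq2 adjusted p = 0.00370), a 23.8% reduction, and was lower in all 4 pairs, most in pair 2 (-0.60). It did not pass with any 1 pair left out (DESeq2 adjusted p between 0.0503 and 0.169), and edgeR with the block gave an adjusted p of 0.166. No other member was at an unadjusted p under 0.05 in edgeR without the block. With the block edgeR called none of the 87, with 5 lower and 0 higher at an unadjusted p under 0.05 (7.80% and 7.24% of all genes).

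Across the nuclear encoded members the fitted difference was negative in 71 of 87, with a median of -0.06, against -0.01 over all genes tested. Lower values were found for 64, 72, 41 and 46 members in pairs 1 to 4, against 6634, 6733, 6692 and 6822 of all 13380 genes. The excess of lower members was thus in pairs 1 and 2. In all 4 pairs 20 members were lower and 2 were higher (Ndufa7, of complex I, and Ndufaf6, an assembly factor), against 12.9% and 12.8% of all genes.

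Promoter sequences are shown because nuclear members are known targets of shared activators, among them nuclear respiratory factor 1 (NRF1) and GABP, and because the overexpressed protein belongs to a family that binds a known palindrome. RefSeq promoter windows of GRCm38.p6, 250 bases before to 50 after the start, were found for 76 of the 91 nuclear members (82 windows) and searched on both strands. The core of the NRF1 motif, CGCATGCG, was in 11 of the members' windows (13.4%) and in 1.87% of all 32851 windows. The GABP motif CCGGAAG was in 20.7% of the members' windows and 8.86% of all, and the YY1 motif AAGATGGC in 14.6% and 2.75%. The full nuclear factor I palindrome, TTGGC and GCCAA set 5 bases apart, was in 0 of 82 windows and 0.0365% of all, and TTGGCA, which shares its first 5 letters with the palindrome, in 19.5% and 14.1%. A match is a run of letters and not a bound site. The windows of all genes were not matched to those of the members in expression or base composition. Genes with several windows, some of them overlapping, entered with each. The shares are therefore a description and not a test of enrichment. Of the 11, the 6 members with the highest mean CPM and room on both sides of the match are shown, with the NRF1 core in capitals. They are Atp5j (chr16:84835100-84835139, minus strand), Cox6a1 (chr5:115349096-115349135, minus), Uqcr11 (chr10:80406803-80406842, minus), Ndufa8 (chr2:36049324-36049363, minus), Atp5k (chr5:108434425-108434464, minus) and Ndufaf4 (chr4:24897955-24897994, plus).
Atp5j: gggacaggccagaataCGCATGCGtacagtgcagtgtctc
Cox6a1: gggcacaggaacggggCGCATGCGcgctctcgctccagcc
Uqcr11: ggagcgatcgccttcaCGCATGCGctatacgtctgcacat
Ndufa8: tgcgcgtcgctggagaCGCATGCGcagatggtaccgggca
Atp5k: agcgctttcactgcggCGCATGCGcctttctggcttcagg
Ndufaf4: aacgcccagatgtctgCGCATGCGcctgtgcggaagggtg

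None of these 6 genes passed the paired test. Cox6a1, the ubiquitous form of subunit 6a, was at 174, 201, 165 and 141 CPM with Nfib, against 185, 232, 154 and 142 CPM with empty vector, and its fitted difference was -0.06 (SE 0.08, DESeq2 adjusted p = 0.865). Ndufa8, an accessory subunit of complex I, gave 0.03 (SE 0.07) and Uqcr11, of complex III, -0.10 (SE 0.07).

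The 37 tested nuclear members placed in complex I by symbol had within-pair medians of -0.06, -0.11, 0.02 and -0.00 on the log2 scale. They include Ndufa4 and the iron-sulfur core subunits Ndufs1 to Ndufs3, Ndufs7, Ndufs8, Ndufv1 and Ndufv2. Ndufs1, the largest iron-sulfur subunit and the most abundant of them, was at 210.4, 217, 164 and 144 CPM with Nfib, against 223, 255, 171 and 150 CPM with empty vector, and did not pass (-0.12, SE 0.07, DESeq2 adjusted p = 0.440). Ndufs8 had the highest fitted value, 0.06 (SE 0.09, DESeq2 adjusted p = 0.883). The 7 assembly factors Ndufaf1 to Ndufaf7, which build the complex but are not part of it, had medians of -0.02, 0.10, 0.07 and 0.06, and none passed.

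In complex II, the only complex without a mitochondrially encoded subunit, none of the 4 members passed. Sdha, its flavoprotein, was at 291, 186, 203 and 212 CPM with Nfib, against 311, 198, 211 and 211 CPM with empty vector (-0.07, SE 0.06, DESeq2 adjusted p = 0.687). Sdhb, the iron-sulfur subunit, was at 165, 276, 148 and 191 CPM with Nfib, against 167, 316, 136 and 178 CPM with empty vector (-0.00, SE 0.09, DESeq2 adjusted p = 0.997). The membrane anchors Sdhc and Sdhd gave -0.00 (SE 0.09) and -0.05 (SE 0.07). In pair 2 all 4 were lower with Nfib, with a median of -0.19.

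In complex III the 8 nuclear members had within-pair medians of -0.06, -0.13, -0.02 and -0.04 and none passed. Uqcrc2, a core subunit, was at 240, 221, 262 and 176 CPM with Nfib, against 252, 246, 260 and 174 CPM with empty vector (-0.06, SE 0.06, DESeq2 adjusted p = 0.812). Uqcrb, a small accessory subunit that had the lowest fitted value, was at 90.4, 90.9, 72.8 and 60.6 CPM with Nfib, against 88.4, 112, 75.2 and 66.3 CPM with empty vector (-0.12, SE 0.09, DESeq2 adjusted p = 0.649). Uqcrq and Uqcr10, small accessory subunits both on chromosome 11, went the other way from their complex in pair 2, at 0.25 and 0.23. Of the other 2 members on that chromosome, both of complex V, Atp5h was at 0.11 and Atp5g1 at -0.18 in pair 2. The median within-pair difference of all 1092 tested genes on chromosome 11 was 0.25 in pair 2, against 0.01, 0.00 and 0.01 in pairs 1, 3 and 4. On chromosome 3, which holds 3 members, the median of the 631 tested genes was -0.13 in pair 2. In pairs 1, 3 and 4 it was -0.02, -0.02 and 0.00. What these shifts contribute to the pair 2 values of members on the 2 chromosomes was not tested.

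The 14 tested nuclear members placed in complex IV by symbol had medians of -0.07, -0.20, -0.02 and 0.00, and none passed. Cox4i1, the regulatory subunit in most tissues and the most abundant by CPM, was at 183, 184, 255 and 258 CPM with Nfib, against 186, 206, 247 and 269.7 CPM with empty vector (-0.06, SE 0.07, DESeq2 adjusted p = 0.822). Several subunits of complex IV have a second isoform that is mostly made in heart and skeletal muscle, lung or testis. Cox4i2, Cox7b2 and Cox8b were too low to test. Cox4i2 held 0 to 2 counts in Nfib libraries and 0 in the empty vector libraries, which allows up to 0.10 to 0.14 CPM. Cox8b held 1, 1, 0 and 69 counts in Nfib replicates 1 to 4, against 0, 0, 0 and 4 with empty vector, so nearly all of it came from 1 library.

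Cox6a2, the muscle form of subunit 6a, stood apart from the other minor isoforms. It was at 1.65, 15.4, 116 and 19.9 CPM in Nfib replicates 1 to 4, against 1.76, 39.9, 136 and 20.2 CPM with empty vector, so that levels between cultures differed 77.2-fold in the empty vector arm. Per exon length it made up 0.972%, 7.36%, 42.0% and 12.7% of the pair Cox6a2 and Cox6a1 with Nfib, against 0.975%, 15.1%, 47.7% and 12.8% with empty vector. In Lmyc3 (new) it thus approached the level of the ubiquitous form. Its difference with Nfib did not pass (-0.45, SE 0.25, DESeq2 adjusted p = 0.430), most of it coming from pair 2 (-1.37). Cox6b2, the testis form of subunit 6b, was at 2.44, 0.09, 2.33 and 0.35 CPM with Nfib, against 3.42, 0.09, 4.52 and 0.63 CPM with empty vector (-0.71, SE 0.46, DESeq2 adjusted p = 0.557). Cox7a1 did not exceed 1.46 CPM in any library.

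The 17 nuclear members placed in complex V by symbol, Atp5s and Atp5sl included, had medians of -0.08, -0.19, -0.03 and -0.03 and none passed. Atp5b, the catalytic beta subunit, was at 1915, 2185, 1523 and 1331 CPM with Nfib, against 1999, 2498, 1520.5 and 1394 CPM with empty vector (-0.09, SE 0.06, DESeq2 adjusted p = 0.555). Atp5l, subunit g, was lower in all 4 pairs, at 47.2, 46.1, 41.8 and 41.6 CPM with Nfib, against 55.7, 68.5, 44.7 and 52.7 CPM with empty vector, and missed the threshold (-0.32, SE 0.12, DESeq2 adjusted p = 0.102). It has annotated pseudogenes in the same table, so its counts are uncertain. The proton-carrying ring is coded by 3 genes for the same mature protein. Of these, Atp5g1 was at 109.9, 248, 102 and 82.8 CPM with Nfib, against 112, 281, 86.3 and 68.7 CPM with empty vector (0.06, SE 0.11, DESeq2 adjusted p = 0.907). Atp5g2 gave -0.05 (SE 0.09) and Atp5g3 -0.12 (SE 0.08), neither passing.

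Set side by side within each complex, the median of the well covered mitochondrially encoded genes lay below that of the nuclear encoded members in all 4 pairs. For complex I the mitochondrial minus nuclear difference in log2 ratio was -0.22, -0.31, -0.08 and -0.32 in pairs 1 to 4. For complex III it was -0.13, -0.14, -0.11 and -0.18, for complex IV -0.16, -0.14, -0.11 and -0.19, and for complex V -0.14, -0.28, -0.11 and -0.10. Complexes III, IV and V each have 1 well covered mitochondrial gene, and the mitochondrial genes share 1 chromosome and its transcripts, so these are not 4 separate observations. Over all complexes the medians of the 8 mitochondrial genes were -0.22, -0.38, -0.13 and -0.26, those of the 87 nuclear members -0.06, -0.14, 0.01 and -0.01, and those of all genes 0.00 in each pair. Individual nuclear members reached as low: 8, 9, 14 and 3 of the 87 lay below the mitochondrial median in pairs 1 to 4. The difference between the classes carries no test.

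**Figure D4:**
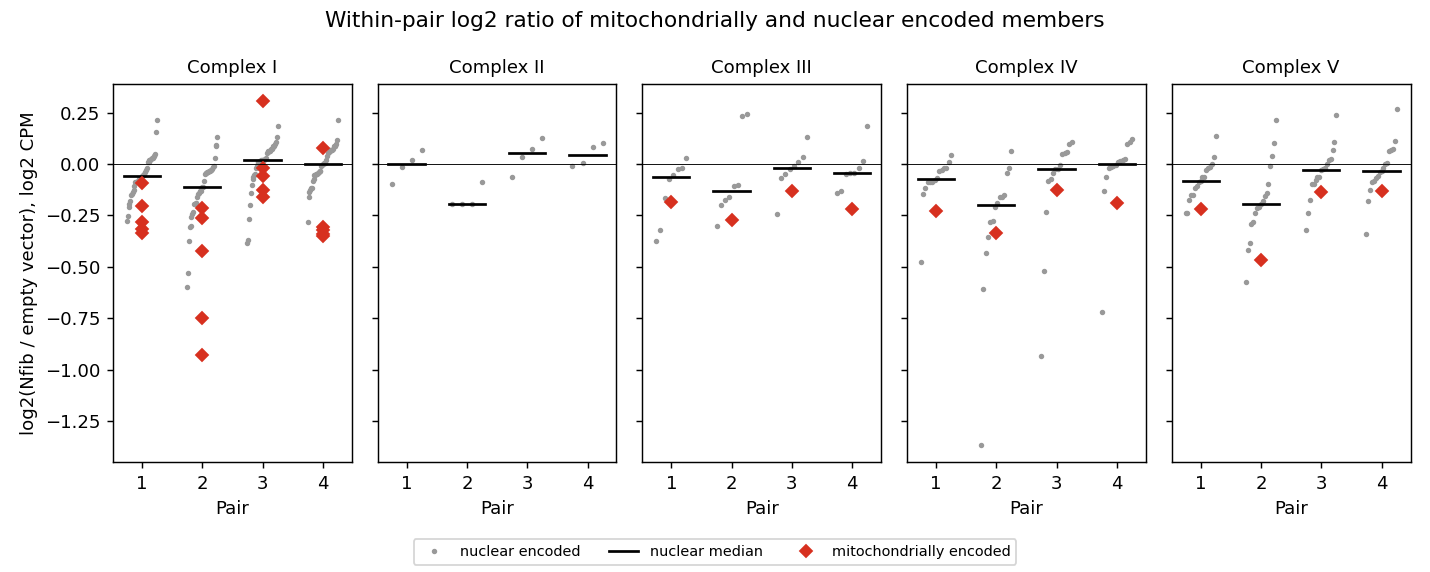
Log2 ratio of Nfib over empty vector within pairs 1 to 4 for nuclear encoded members placed by symbol (grey points, black bar at their median; Ndufaf1 to Ndufaf7 left out) and the 8 well covered mitochondrially encoded genes (red diamonds), by complex. In complexes III, IV and V each diamond lies below the nuclear median, and in complex I the mitochondrial median does so in each pair, with mt-Nd6 above it in pairs 3 and 4.

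Levels per kilobase of exon were used to set the 2 classes side by side. Length was the union of all annotated exons of a gene, for example 5628 bases for Ndufb2 and 6883 for Ndufab1. Where that exceeds the transcript made, the value of a nuclear member is too low, so the scale is not even between the classes. mt-Co1 averaged 6442 CPM per kb with Nfib and 7526 with empty vector, and mt-Cytb averaged 5771 with Nfib and 6648 with empty vector. mt-Nd1 averaged 5248 CPM per kb with Nfib and 6747 with empty vector. mt-Nd4 averaged 1473 CPM per kb with Nfib and 1776 with empty vector, and mt-Nd6 averaged 265 with Nfib and 276 with empty vector. The highest nuclear member, Atp5b, averaged 410 CPM per kb with Nfib and 437 with empty vector, followed by Atp5a1, the alpha subunit, at 336 with Nfib and 373 with empty vector. By this measure and with its limit, 7 of the 8 well covered mitochondrial genes were above every nuclear member, and mt-Nd6 was in the range of the highest nuclear ones.

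The cultures differed from each other in the levels of most members. Among empty vector libraries the nuclear members spanned a median of 1.83-fold between the highest and the lowest culture, close to the 1.95-fold of all genes tested. The order was shared: Lmyc3 (old) was the highest culture for 63 of the 87 and Lmyc5 the lowest for 54, whereas over all genes Lmyc3 (old) was highest for 3804 of 13380 and Lmyc5 lowest for 3315. Among the 8 mitochondrial genes Lmyc3 (old) was highest for 7 and Lmyc5 lowest for 8. Between the 2 cultures labelled Lmyc3, the old one had the higher empty vector level for 72 of the 87 nuclear members, against 6693 of all 13380 genes, and for all 8 mitochondrial genes. With Nfib it was higher for 73 of the 87, for 6685 of all genes and for 4 of the 8. With 1 empty vector library per culture these orders have no test.

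**Figure D5:**
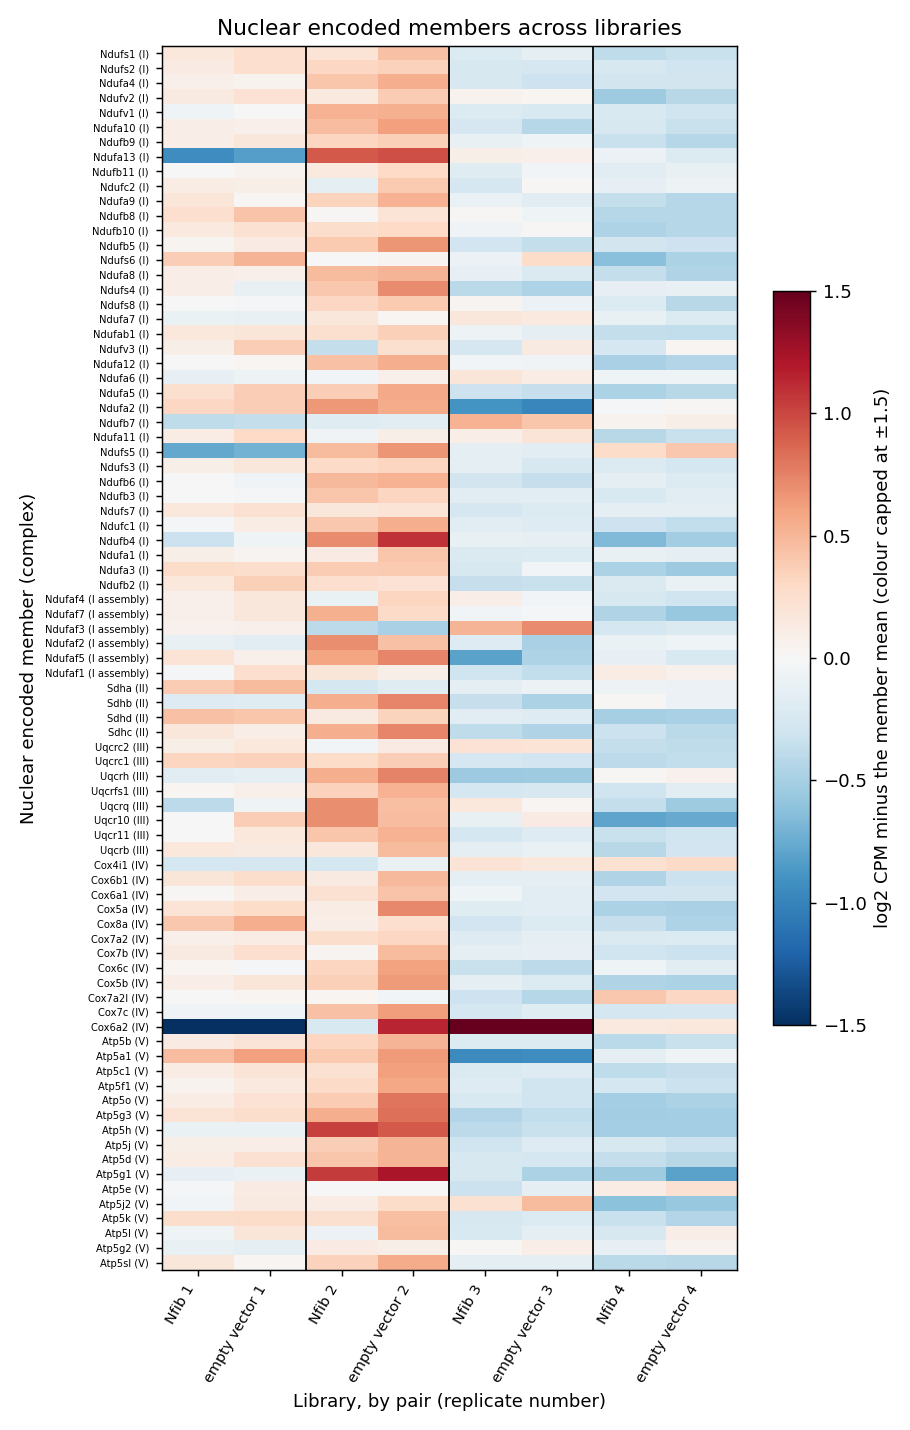
Log2 CPM of the 83 nuclear encoded members with a mean of at least 10 CPM, minus each member's mean over the 8 libraries, by pair with the Nfib library left of the empty vector library (colour capped at ±1.5). Columns of the same pair look alike, pair 2 is mostly red and pair 4 mostly blue, and Cox6a2, Ndufa13, Ndufa2 and Atp5a1 break the common order.

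Several members departed from that order in step with their chromosome. Atp5a1 and Ndufa2, the only members on chromosome 18, were lowest in Lmyc3 (new) and not in Lmyc5. Atp5a1 was at 1411, 1351, 529.5 and 926 CPM with Nfib, against 1567, 1593, 537 and 984 CPM with empty vector. Ndufa2, an accessory subunit of complex I, was at 64.7, 81.8, 27.9 and 51.4 CPM with Nfib, against 67.2, 76.7, 26.3 and 52.8 CPM with empty vector. The 349 tested genes of chromosome 18 had a median of -0.95 in Nfib replicate 3 and -0.91 in empty vector replicate 3, on the log2 scale relative to the other 3 cultures of the same arm. On chromosome 8, Ndufb7 and Cox4i1 were lower in replicates 1 and 2 than in replicates 3 and 4 in both arms. The 734 tested genes there had medians of -0.63, -0.42, 0.55 and 0.43 in Nfib replicates 1 to 4 and of -0.66, -0.42, 0.54 and 0.46 with empty vector. Ndufa13, also on chromosome 8, did not follow it, at 53.9, 195, 109.5 and 96.4 CPM with Nfib and 58.1, 201, 109 and 88.9 CPM with empty vector. The number of chromosome copies was not measured here.

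Genes that act on the same machinery are read beside the shares over all genes, 1.86% higher and 2.20% lower, by which lists of this size would hold few calls or none. None of the 21 tested genes of mitochondrial transcription and RNA processing passed, including Tfam, which packages and activates the mitochondrial chromosome (0.05, SE 0.07, DESeq2 adjusted p = 0.889), and Polrmt, its RNA polymerase (0.13, SE 0.12, DESeq2 adjusted p = 0.728). None passed among 10 genes of mitochondrial DNA replication, 34 other assembly factors, 77 proteins of the mitochondrial ribosome or 8 regulators of nuclear encoded subunits. Ppargc1a, a coactivator of mitochondrial gene expression, gave -0.31 (SE 0.47, DESeq2 adjusted p = 0.890). Of 14 genes of the tricarboxylic acid cycle, 1 rose and none fell. Suclg2, the GTP-forming subunit of succinyl-CoA ligase, was at 53.8, 54.8, 59.7 and 38.6 CPM with Nfib, against 45.1, 40.1, 37.4 and 27.3 CPM with empty vector, and rose by 0.46 (SE 0.11, DESeq2 adjusted p = 0.00304). It kept passing without pair 1 or pair 2 and not without pair 3 or pair 4.

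Of 21 electron carriers, membrane carriers and coupling proteins, 2 fell and none rose, beside 2.20% and 1.86% of all genes. Ucp2, an inner membrane carrier named after the uncoupling protein of brown fat, was at 1046, 133, 859 and 281 CPM with Nfib, against 1318, 450.5, 1179 and 486 CPM with empty vector. It fell by 0.84 (SE 0.22, DESeq2 adjusted p = 0.00775), most in pair 2. It passed again without pair 1, 2 or 3 and not without pair 4 (DESeq2 adjusted p = 0.549). Vdac1, the main channel of the outer membrane, was at 537, 597, 482 and 382 CPM with Nfib, against 641, 628, 577 and 452 CPM with empty vector. It fell by 0.22 (SE 0.06, DESeq2 adjusted p = 0.0220), and passed again with pair 2 left out but not with any other pair left out or with total counts (DESeq2 adjusted p = 0.0680).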

How the data were processed

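Counts per Ensembl gene were analysed as deposited, whole numbers that the authors did not normalize. Per the labels' protocols, the Illumina TruSeq kit for RNA was used. Per the submitters' processing notes, TopHat2 2.1, Bowtie 1.0.0, SAMtools 0.1.19 and DESeq2 were used with GRCm38 (mm10). Which program counted reads, whether by strand, and from which annotation is not given in the sources used here.

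Genes were kept by edgeR's filter by group (13380 of 22691, and 98 of the 103 members). Not tested were mt-Co3, Ndufa4l2, Cox4i2, Cox7b2 and Cox8b. edgeR 4.0.16 (R 4.3.3, TMM, quasi-likelihood F test, no block) was the main test. DESeq2 1.42.0 with the replicate block was used to describe genes because edgeR called none. DESeq2's undefined adjusted p-values (260 genes) were kept undefined and count as not passing. limma 3.58.1 (voom with the block), other scalings, other filters, the Lmyc3 pairs summed and each pair left out were alternatives. Pairs follow the labels: the Nfib and empty vector library of a number are from 1 line. Deviations from the group means correlated at 0.884 to 0.935 within numbers and at most 0.0647 between them. Within-pair log2 ratios used log2 CPM with a prior count of 2. A count of 0 allows up to 3 counts, 0.10 to 0.14 CPM in these libraries. That limit covers counting error only.

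The named genes were Nfib, all mitochondrially encoded members, nuclear members that passed a paired test, the most abundant, highest and lowest member per complex, the isoform families, complex II, list genes that passed, Tfam, Polrmt and Ppargc1a. Others were named after their values were seen. The members and lists were chosen with earlier results of these data known. Exon lengths and transcripts were from GENCODE M21, and all 103 members matched it. The NRF1 motif was shortened to an 8-letter core after a longer form had been searched, and the medians by chromosome were added after values were seen. A further neuroendocrine marker of the lists is not reported here. The fits were tested on simulated counts whose changes were larger than those of any member called. That test does not bear on the calls of members.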

Additional observations from a re-analysis of the deposited data

Results flagged for a closer look

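Of 76 groups of 4 libraries checked, 4 had 1 library far from the other 3, and chance alone would be expected to set apart about 1 group in 20. Atp5g1 was at 248 CPM in Nfib replicate 2, against 82.8 to 109.9 CPM in the other Nfib libraries. Cox6a2 was at 116 CPM in Nfib replicate 3, against 1.65 to 19.9 CPM in the others. Sdha was at 311 CPM in empty vector replicate 1, against 198 to 211 CPM in the others. Uqcrc2 was at 174 CPM in empty vector replicate 4, against 246 to 260 CPM in the others.

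For 5 genes both pairs labelled old went one way and both pairs labelled new the other. As the mean of old pairs minus the mean of new pairs, in log2 ratio of Nfib over empty vector, the differences were -0.36 for Atp5g1, 0.17 for Atp5g2, -0.22 for Sdhb, -0.13 for Uqcrc2 and -0.44 for mt-Nd6. These differences were not tested, and old and new cannot be told apart from the lines Lmyc1 and Lmyc5, which occur under 1 of the words only.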

How the results depend on the processing

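Without a block edgeR called 0 genes higher and 0 lower, and the paired edgeR fit with the replicate block gave 0 and 0 as well. Genes called higher were 3 in DESeq2 without the block and 3 in limma voom with it. The bias-adjusted edgeR fit with the block gave 30 higher and 14 lower. In the paired DESeq2 test (replicate block) the numbers up and down were 249 and 294 with its own size factors, 324 and 201 with total counts, 268 and 272 with TMM, 265 and 268 with TMM outside the mitochondrial chromosome, 222 and 245 with Lmyc3 summed per arm, 274 and 331 with no filter, and 184 and 253 with at least 10 counts in every library. Without replicate 1, 2, 3 or 4 it gave 175, 178, 145 and 108 higher and 176, 204, 89 and 143 lower. The cause was not tested.

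Mitochondrially encoded members called lower were 0 with edgeR and limma. They were 4 in DESeq2 with the replicate block under its size factors, total counts, both TMM scalings and both filters, 7 with Lmyc3 summed, and 1, 1, 2 and 0 without replicate 1, 2, 3 or 4. Nuclear encoded members called lower were 0 with edgeR, 1 in each of those DESeq2 fits to all libraries, and 0 without any of the replicates. The fold change of mt-Nd3 ranged between -0.47 and 0.15 with 1 replicate left out in edgeR and turned positive without replicate 2 (0.12 with the block, 0.11 in DESeq2 with the block). That of mt-Nd6 ranged between -0.18 and 0.043, and was 0.055 and 0.032 with the block without replicate 1 or 2, and 0.050 and 0.029 in DESeq2 with the block.

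The medians of both classes, of nuclear encoded complexes I, III, IV and V and the share of counts kept their direction under each alternative tried, but not always their size. That of complex II, -0.02, was 0.01 with total counts and 0.04 without replicate 2. Without replicate 2 the mitochondrial share differed by -0.328 percentage points in place of -0.553, and the nuclear median was -0.03 in place of -0.05. With total counts the nuclear median was -0.02. Total-count scaling moved the median of all genes by 0.026. The DESeq2 fits with TMM, other filters or summed Lmyc3 were chosen after seeing the data. Few counts of mt-Co2, mt-Co3, mt-Atp6 and mt-Nd3 limit the precision of their values, and the cause of the low counts was not tested.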
